A study of Mus musculus with 30 samples.

Results

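The Tceal and Bex genes encode a family of small, mostly acidic proteins, and 10 of them were followed here in mouse diaphragm: Tceal1, Tceal3, Tceal5, Tceal6, Tceal7, Tceal8, Bex1, Bex2, Bex3 and Bex4. All 10 were found among the 33076 genes of the deposited count table. The family was selected on its higher counts in SBMA than in control libraries, seen in an earlier look at the same data, so the SBMA minus control differences below are a description of the members and carry no test. The study profiled diaphragm from 15 male mice by bulk RNA-seq, with 1 library from a perisynaptic piece (with neuromuscular junctions) and 1 from an extrasynaptic piece (without them) of each animal, 30 libraries in 8 groups. The SBMA animals were BACfxAR121 mice (written BACfxR121 in the sample labels), which carry a floxed human androgen receptor transgene with an expanded glutamine tract, the mutation behind spinal and bulbar muscular atrophy (SBMA). The controls were HSA-Cre;BACfxAR121 littermates. HSA-Cre expresses Cre recombinase in skeletal muscle fibres, so these animals lose the transgene in muscle and keep it elsewhere, and every group thus carries the BACfxAR121 allele. SBMA animals numbered 4 at 26 weeks and 4 at 15 weeks, and controls 4 at 26 weeks and 3 at 15 weeks. The human transgene has no row in the mouse count table, so the genotype could not be checked from its reads.

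Tceal proteins take their name from resemblance to transcription elongation factor A (TFIIS), which helps stalled RNA polymerase II resume, and Bex stands for brain expressed X-linked. In placental mammals the genes lie together on the X chromosome and are known above all from neurons and endocrine cells. In mouse skeletal muscle Bex1 and Tceal7 are known from regeneration, Tceal7 as a gene switched on by myogenic regulatory factors in differentiating myoblasts. Bex3 is known as a partner of the neurotrophin receptor p75 (Ngfr).

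The 10 genes spanned 1503 kb of the X chromosome (GRCm38, GENCODE vM21 annotation). Tceal6 lay apart at chrX:135208687-135210687 on the minus strand, and the other 9 filled 645 kb. These were Bex2 (136066564-136068236, minus), Bex4 (136138996-136140443, plus), Tceal8 (136168984-136172342, minus), Tceal5 (136200948-136203876, minus), Bex1 (136213972-136215513, minus), Tceal7 (136214779-136226100, plus), Bex3 (136270253-136271978, plus), Tceal3 (136590842-136668378, plus) and Tceal1 (136707982-136711478, plus). Tceal5, Bex1 and Tceal7 are consecutive in this order, and their midpoints lay within 18 kb of each other.

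The promoters of 9 of the 10 members shared a sequence pattern. Every member that passed the filter on low counts lies among these 9, Bex3 and Tceal3 included. The pattern therefore cannot set apart the members furthest above control in SBMA muscle. RefSeq promoters (GRCm38.p6, 250 bases before to 50 after each transcript start) were searched on both strands. The hexamer CACGTG, an E-box, was present for all members but Bex2. It stood in 7.15% of 32851 promoters. In the same 9 members TGAC preceded it, with either 8 or 10 bases in between. TGACNNNNNNNNCACGTG was found for Tceal3, Tceal5, Tceal6, Tceal7, Tceal8, Bex1 and Bex4, and in 0.1% of all promoters. TGACNNNNNNNNNNCACGTG was found for Tceal1 and Bex3, and in 0.0487% of all promoters. The windows below hold 50 bases each, 5′ to 3′ on the gene's strand, with TGAC and CACGTG in capitals.
Tceal5: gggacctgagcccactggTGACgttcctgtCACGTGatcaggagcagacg
Tceal7: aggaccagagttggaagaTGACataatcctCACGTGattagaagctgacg
Bex1: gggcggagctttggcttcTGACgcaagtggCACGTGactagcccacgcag
Bex4: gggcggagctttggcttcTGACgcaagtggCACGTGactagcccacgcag
Tceal8: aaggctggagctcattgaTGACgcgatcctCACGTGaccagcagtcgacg
Tceal6: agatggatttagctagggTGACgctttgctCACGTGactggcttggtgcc
Tceal3: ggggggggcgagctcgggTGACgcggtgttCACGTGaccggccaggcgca
Tceal1: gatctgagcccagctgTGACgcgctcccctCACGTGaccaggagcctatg
Bex3: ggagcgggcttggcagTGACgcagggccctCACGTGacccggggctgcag

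These windows lie at chrX:136203880-136203929 (Tceal5, minus strand), chrX:136223951-136224000 (Tceal7, plus strand), chrX:136215497-136215546 (Bex1, minus strand), chrX:136138957-136139006 (Bex4, plus strand), chrX:136172215-136172264 (Tceal8, minus strand), chrX:135210682-135210731 (Tceal6, minus strand), chrX:136666348-136666397 (Tceal3, plus strand), chrX:136707951-136708000 (Tceal1, plus strand) and chrX:136270250-136270299 (Bex3, plus strand). The hexamer began 15 bases before the RefSeq start of Tceal5, 60 before that of Tceal7 and 3 before that of Bex1. The windows of Bex1 and Bex4 were identical, and their promoters shared a run of 271 bases. Those of Bex2 and Bex3 shared 162 bases, although only Bex3 held the hexamer. The promoters of Tceal5 and Tceal7 shared no run longer than 11 bases. The motifs were picked after these promoters had been read, and a match describes letters only. Members with high and with low SBMA values both held the pattern. Among 10 genes with a promoter in the table, from a list of Armcx, Gprasp and Arxes genes, it was found for Armcx1, Armcx4 and Armcx6. It was not found in these windows for Tceal9, which lies between Tceal7 and Bex3.

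Total counts per library ranged from 16280873 to 34694446. Of the 10 members, 7 passed the filter on low counts, and Tceal6, Bex2 and Bex4 did not. The muscle identity of the samples was visible in 10 of 10 defining genes (Acta1, Ckm, Mb, Myh1 and others), whose summed level lay between 58780 and 138300 CPM (counts scaled to the TMM-corrected library size) in every library. In the perisynaptic piece at 26 weeks it lay between 58780 and 68530 CPM in SBMA libraries, against 113800 to 130000 CPM in control ones. In the extrasynaptic piece it lay between 63190 and 72240 CPM in SBMA libraries, against 119400 to 131600 CPM in control ones. The genotypes did not overlap at 15 weeks either. In bulk tissue, fewer cells of a type and less RNA per cell cannot be told apart, and the part of these shifts in the values below was not tested.

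Tceal5, Tceal7 and Bex1 stood furthest above control in SBMA muscle. At 26 weeks each averaged 16.6 to 31.7 CPM in the SBMA groups, against 3.38 to 5.70 CPM in the control groups. SBMA stood 4.84- and 4.93-fold above control for Bex1 in the perisynaptic and extrasynaptic piece, and 5.42- to 7.10-fold above it for Tceal5 and Tceal7. Within each run of consecutive animal numbers at 26 weeks (2 SBMA and 2 control animals a run), the log2 fold change lay between 2.15 and 2.96 for Tceal5 and Tceal7 and between 1.87 and 2.57 for Bex1. At 15 weeks the same genes stood between 1.51- and 2.44-fold above control.

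**Figure D1:**
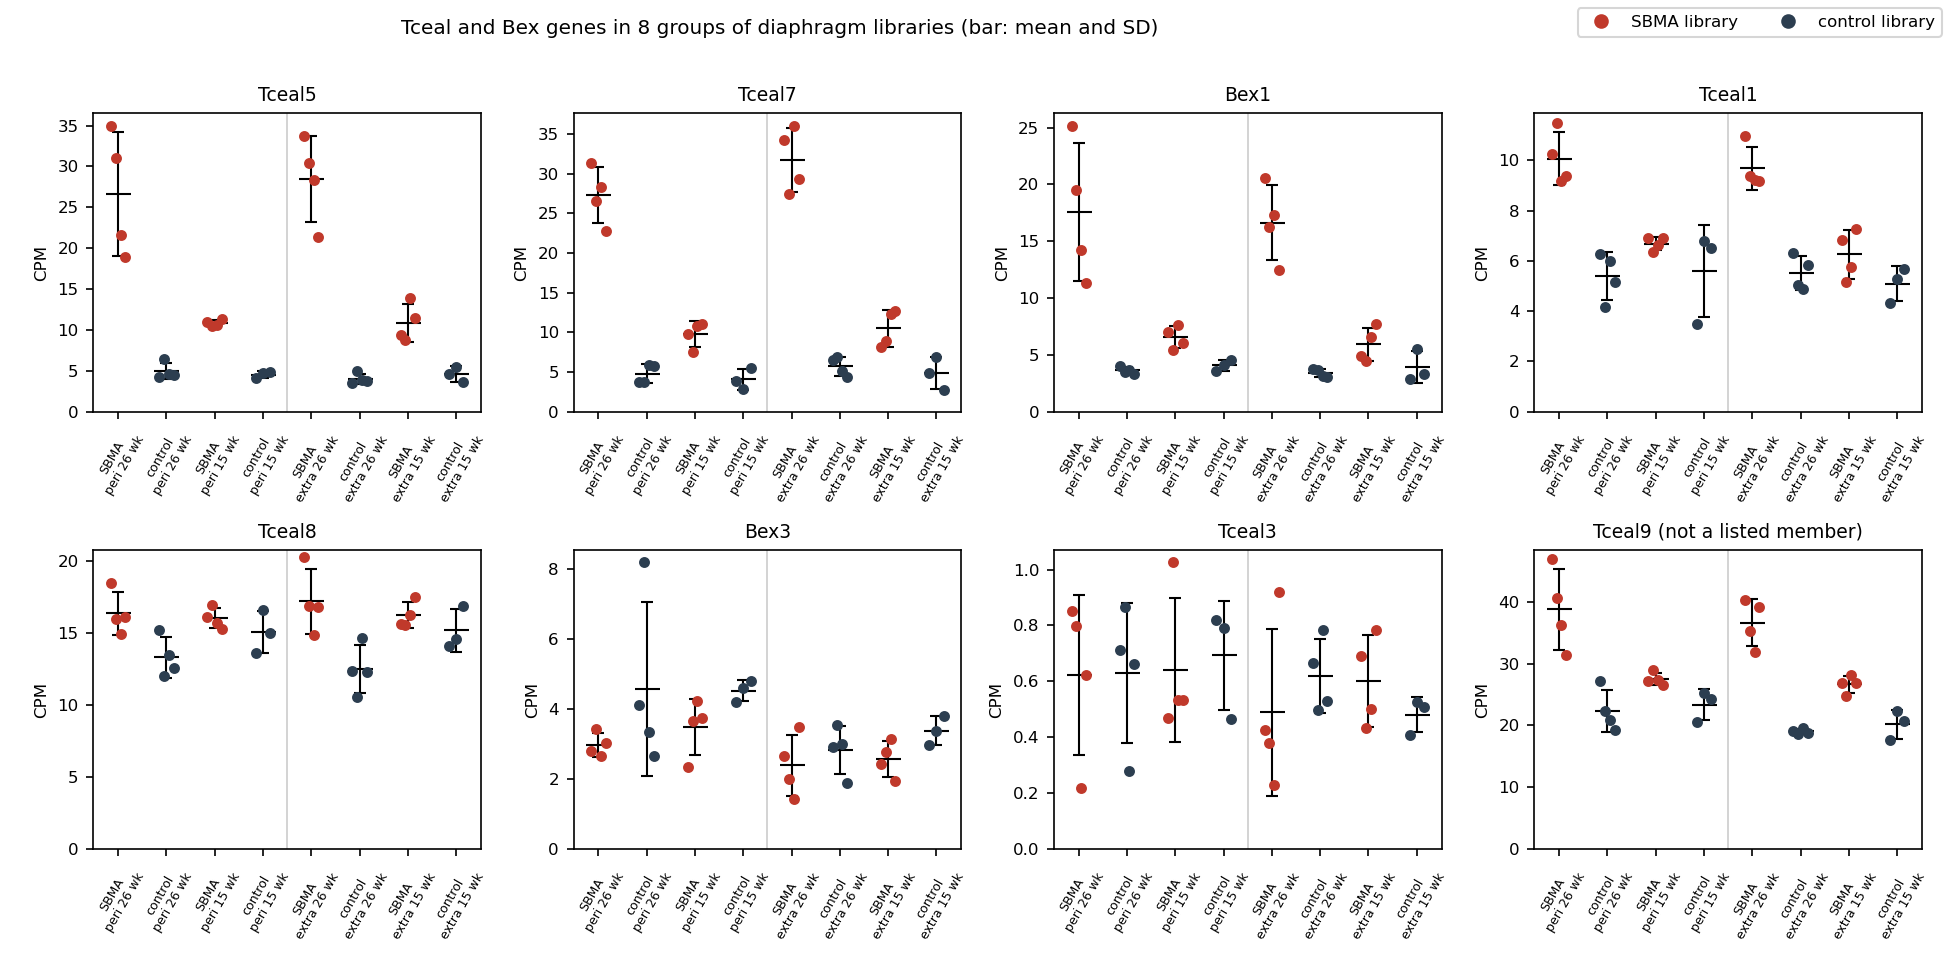
CPM of 7 members and of Tceal9 in each library (points) by genotype, region and age, with mean and SD (bars). The SBMA libraries at 26 weeks lie above all control libraries for Tceal5, Tceal7, Bex1 and Tceal1, and the genotypes overlap in every region and age for Bex3 and Tceal3.

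Tceal5 had 34.93, 30.99, 21.63 and 18.87 CPM in the perisynaptic SBMA libraries at 26 weeks, against 4.198, 6.467, 4.66 and 4.505 CPM in the perisynaptic control libraries. In the extrasynaptic piece it had 33.76, 30.42, 28.3 and 21.32 CPM in SBMA libraries, against 3.477, 4.933, 3.818 and 3.794 CPM in control ones. The genotypes did not overlap, and SBMA animals 1 and 2 were the highest in both regions. The log2 fold change was 2.44 ± 0.19 (SE) perisynaptic and 2.83 ± 0.18 extrasynaptic. At 15 weeks the perisynaptic values were 10.93, 10.53, 10.63 and 11.37 CPM in SBMA against 4.065, 4.74 and 4.791 CPM in control libraries. The extrasynaptic SBMA libraries had 9.337, 8.741, 13.86 and 11.4 CPM, against 4.601, 5.51 and 3.609 CPM in control libraries. Every SBMA library again stood above every control library, with log2 fold changes of 1.26 ± 0.21 perisynaptic and 1.24 ± 0.20 extrasynaptic.

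Tceal7, the regeneration-associated member, had 31.39, 26.62, 28.35 and 22.84 CPM in perisynaptic SBMA libraries at 26 weeks, against 3.723, 3.768, 5.855 and 5.785 CPM in control libraries. Its extrasynaptic values were 34.23, 27.5, 35.96 and 29.28 CPM in SBMA against 6.478, 6.833, 5.106 and 4.388 CPM in control libraries. The lowest SBMA library stood above the highest control library in both regions. The log2 fold change was 2.52 ± 0.20 perisynaptic and 2.48 ± 0.22 extrasynaptic. At 15 weeks it had 9.851, 7.499, 10.82 and 11.02 CPM in perisynaptic SBMA libraries and 3.901, 2.885 and 5.456 CPM in control libraries. In the extrasynaptic piece it had 8.107, 8.957, 12.32 and 12.73 CPM in SBMA libraries, against 4.927, 6.865 and 2.776 CPM in control ones. These groups did not overlap either, and the log2 fold changes were 1.29 ± 0.23 and 1.11 ± 0.25.

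Bex1 had 25.12, 19.54, 14.19 and 11.34 CPM in perisynaptic SBMA libraries at 26 weeks, against 4.039, 3.514, 3.704 and 3.312 CPM in control libraries. Its extrasynaptic values were 20.52, 16.27, 17.29 and 12.48 CPM in SBMA against 3.715, 3.62, 3.128 and 3.068 CPM in control libraries. The SBMA animals differed more among themselves than the control animals did, and every SBMA library stood above every control library. The log2 fold change was 2.27 ± 0.21 perisynaptic and 2.30 ± 0.22 extrasynaptic. At 15 weeks Bex1 had 7.036, 5.445, 7.655 and 6.065 CPM in perisynaptic SBMA libraries and 3.532, 4.122 and 4.525 CPM in control libraries, with no overlap. The extrasynaptic values were 4.918, 4.496, 6.565 and 7.682 CPM in SBMA libraries, against 2.891, 5.553 and 3.332 CPM in control ones, which overlapped. The log2 fold changes at that age were 0.69 ± 0.23 and 0.59 ± 0.24.

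Bex1 and Tceal7 overlap on opposite strands by 735 bases, of which 223 are exonic on both, and these are 18.8% of the exon length of Bex1 and 18.3% of that of Tceal7. The kit keeps strand, but the strand setting of the counting is not given in the sources used here, so reads of this stretch may be shared between both genes. The RefSeq start of Tceal7 lies downstream of the overlap. Of the 50-base words of Bex1 transcripts, 21.1% also occur in Bex4 or Bex2, and of those of Tceal5, 25.4% occur in Tceal6 or Tceal3. None of those of Tceal7 occurs in another gene on the same strand. Counts of near-identical members are therefore uncertain to that extent. RefSeq lists Bex1 and Bex2 as synonyms of each other, and rows were matched here by gene ID.

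Tceal1 and Tceal8 stood higher in SBMA by less. Tceal1, whose human counterpart encodes a nuclear phosphoprotein that modulates transcription, had 10.24, 11.48, 9.183 and 9.371 CPM in perisynaptic SBMA libraries at 26 weeks, against 6.257, 4.176, 6.015 and 5.167 CPM in control libraries. Its extrasynaptic values were 10.98, 9.373, 9.217 and 9.173 CPM in SBMA against 6.335, 5.023, 4.876 and 5.839 CPM in control libraries. The genotypes did not overlap at 26 weeks, with log2 fold changes of 0.90 ± 0.18 and 0.81 ± 0.13. At 15 weeks they overlapped, and the log2 fold changes were 0.26 ± 0.20 and 0.30 ± 0.15. Tceal8 had 14.92 to 18.49 CPM in perisynaptic SBMA libraries at 26 weeks and 12.02 to 15.21 CPM in control libraries, with overlap. Its extrasynaptic range was 14.85 to 20.27 CPM in SBMA libraries, against 10.59 to 14.67 CPM in control ones, without overlap. The log2 fold change of Tceal8 was 0.31 ± 0.10 perisynaptic and 0.46 ± 0.11 extrasynaptic at 26 weeks, and 0.08 ± 0.11 and 0.09 ± 0.12 at 15 weeks.

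Bex3, the p75 partner, was the only tested member whose estimate was negative in both regions at both ages. It averaged 2.97 ± 0.336 CPM in perisynaptic SBMA libraries at 26 weeks and 4.58 ± 2.49 CPM in control libraries (SD, n = 4 each), a log2 fold change of -0.60 ± 0.28. Control animal 2 held 8.199 CPM there, and without that animal the log2 fold change was -0.18 ± 0.19. The extrasynaptic value at 26 weeks was -0.25 ± 0.25, and those at 15 weeks were -0.37 ± 0.30 perisynaptic and -0.40 ± 0.27 extrasynaptic. At 15 weeks Bex3 had 2.345 to 4.227 CPM in perisynaptic SBMA libraries and 4.189 to 4.791 CPM in control libraries, with a narrow overlap. Tceal3 had between 6 and 24 counts in any library. Its log2 fold changes ran between -0.36 ± 0.36 and 0.33 ± 0.39 over the 4 comparisons, with genotypes overlapping in each.

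Tceal6, Bex2 and Bex4 had 23, 56 and 18 counts over all 30 libraries and were too low for a fit. A library with no count allows a level of up to 0.0865 to 0.184 CPM (3 counts at these depths, counting error only). Tceal6 had 10 counts over the perisynaptic SBMA libraries at 26 weeks and 1 over the control libraries. At 15 weeks it had 7 in perisynaptic SBMA and 1 in control libraries. In the extrasynaptic piece it had 2 counts in SBMA and 0 in control libraries at 26 weeks, and 0 in SBMA and 2 in control libraries at 15 weeks. Tceal6 shares 45.3% of its 50-base words with Tceal3 and Tceal5. Bex2 had at most 5 counts and Bex4 at most 3 counts in any library.

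**Figure D2:**
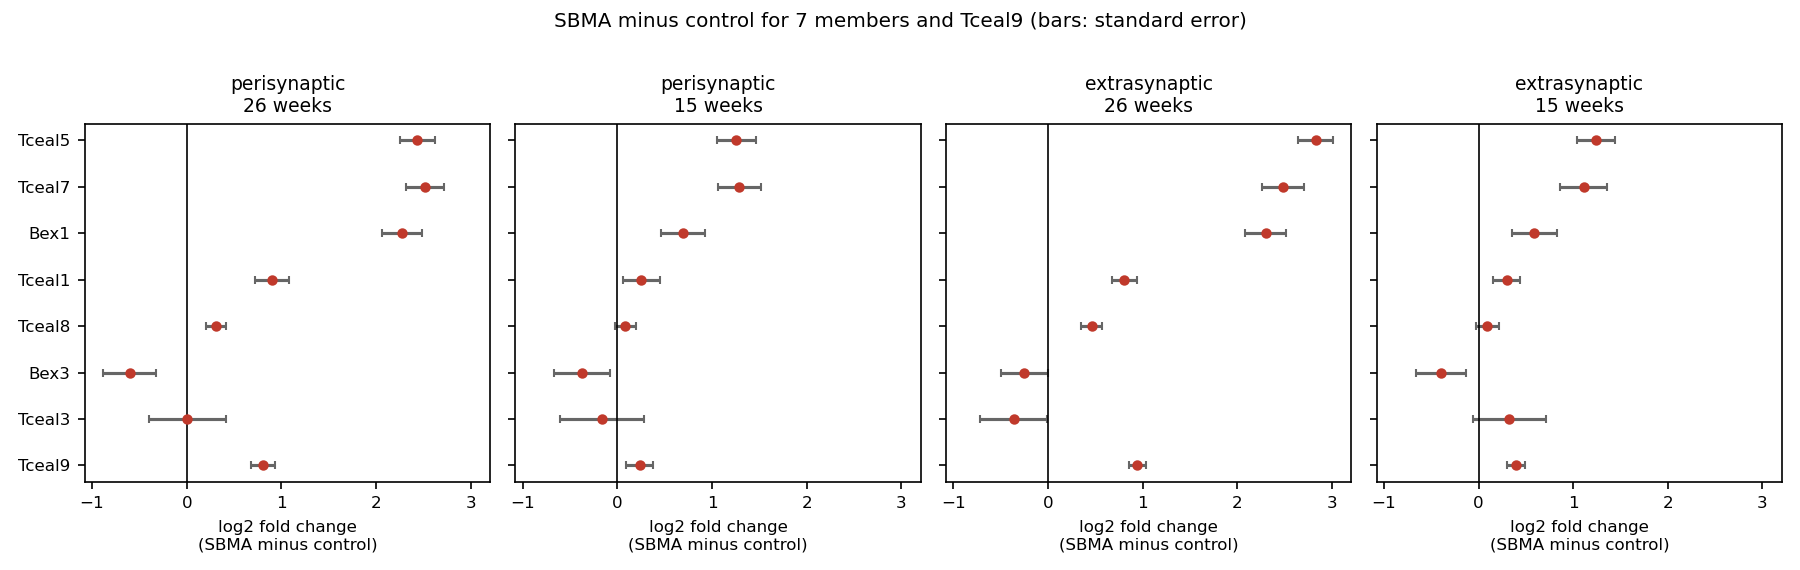
Log2 fold change of SBMA minus control with its standard error for 7 members and Tceal9, in each region and age. Tceal5, Tceal7 and Bex1 lie between 2.27 and 2.83 at 26 weeks and between 0.59 and 1.29 at 15 weeks, while Bex3 lies below 0 in all 4 comparisons.

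Counts of members against the whole table were as follows, and since these contrasts chose the family, nothing is read from them. In perisynaptic muscle at 26 weeks 4 members (Tceal5, Bex1, Tceal7 and Tceal1) passed an adjusted p under 0.05, all higher in SBMA, where 14% of 15735 genes tested passed and 8.04% were higher. In extrasynaptic muscle at 26 weeks 5 members passed, Tceal8 in addition, all higher, against 32.2% of 15526 genes and 16.1% higher. At 15 weeks Tceal5 and Tceal7 passed in each region, against 0.21% of genes (0.127% higher) in perisynaptic and 1.22% (0.554% higher) in extrasynaptic muscle. The 15-week calls rested on few animals. In perisynaptic muscle, leaving out control animal 3 left Tceal7 alone, and leaving out any of the other 6 animals left none, while the log2 fold change of Tceal5 stayed between 1.18 and 1.30. In extrasynaptic muscle Tceal5 stayed called in all 7 fits that each left out 1 animal, and Tceal7 was lost without SBMA animal 2, 3 or 4 or control animal 1 or 3. Within the runs of animal numbers at 15 weeks, the log2 fold changes in perisynaptic muscle were 1.25 to 1.39 for Tceal5 and 1.27 to 1.44 for Tceal7. The first of these runs held only 1 control animal and the second only 1 SBMA animal, so no calls are given for them. Every SBMA library stood above every control library for 4 members in perisynaptic muscle at 26 weeks (9.97% of all genes tested), 3 at 15 weeks (6.53%), 5 in extrasynaptic muscle at 26 weeks (15.4%) and 2 at 15 weeks (8.08%).

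The change of the genotype difference between ages reuses the libraries that chose the family, so for the members it is a description and carries no test. No run of animal numbers held both ages, so age cannot be told apart from run. The genotype difference at 26 weeks minus that at 15 weeks was, on the log2 scale, 1.18 ± 0.27 for Tceal5, 1.23 ± 0.30 for Tceal7 and 1.58 ± 0.31 for Bex1 in perisynaptic muscle. In extrasynaptic muscle it was 1.59 ± 0.27, 1.37 ± 0.33 and 1.71 ± 0.32 for these genes in the same order. Bex1 passed the threshold in perisynaptic muscle, where 0.375% of all genes passed (0.241% higher), and Tceal5, Tceal7 and Bex1 passed in extrasynaptic muscle, where 1.73% passed (1.01% higher), and nothing is read from these counts. The perisynaptic count went up to 2, with Tceal5, without SBMA animal 4 or control animal 2 of 26 weeks. It was 0 without SBMA animal 2 or control animal 1, 3 or 4 of 26 weeks, and without SBMA animal 1, 2 or 4 or any control animal of 15 weeks.

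The members that dominated the family differed between genotypes. Summed over the 10 members, the level was 101.7 ± 18.6 CPM in perisynaptic SBMA libraries at 26 weeks, against 37.4 ± 1.93 CPM in control libraries, and Tceal5, Tceal7 and Bex1 together made up 69.8% of it in SBMA and 35.8% in control libraries. At 15 weeks the sum was 54.2 ± 2.04 CPM in SBMA libraries, against 38.7 ± 4.28 CPM in control ones, with shares of 50.2% in SBMA and 32.8% in control libraries. The extrasynaptic sum at 26 weeks was 106.7 ± 12.2 CPM in SBMA libraries, against 34.7 ± 1.88 CPM in control ones. At 15 weeks it was 53.1 ± 6.84 CPM in SBMA libraries, against 37.6 ± 3.81 CPM in control ones. Per kilobase of exon, Tceal7 led in perisynaptic SBMA libraries at 26 weeks (22.4 ± 2.93 CPM per kb). Tceal5 (21.1 ± 6.01 CPM per kb) and Bex1 (14.8 ± 5.13 CPM per kb) followed, and the mean ± SD of each overlapped that of the gene before it. Tceal8 (6.39 ± 0.588 CPM per kb) came next, and Tceal1 (3.59 ± 0.374 CPM per kb) and Bex3 (3.05 ± 0.345 CPM per kb) below it did not differ beyond their spread. In the perisynaptic control libraries of that age the order opened with Tceal8 (5.19 ± 0.546 CPM per kb), followed by Bex3 (4.71 ± 2.56), Tceal7 (3.93 ± 0.985), Tceal5 (3.93 ± 0.811) and Bex1 (3.07 ± 0.261), where neighbours did not differ beyond their spread.

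The genes lying between the members are no members of the list, and their values come from the same fits over all genes. They share the libraries and the contrast that chose the family, and Tceal9 belongs to it, so they are no independent support. Of 16 in the table between Tceal6 and Tceal1, 6 were tested in perisynaptic muscle and 7 in extrasynaptic muscle, and the same 5 were higher in SBMA at 26 weeks in both: Tceal9, Armcx5, Gprasp1, Gprasp2 and Bhlhb9. Over all genes tested 8.04% were higher in perisynaptic and 16.1% in extrasynaptic muscle. At 15 weeks edgeR's quasi-likelihood test called 0 in either region. At an unadjusted p under 0.05 there was then 1 in perisynaptic and 3 in extrasynaptic muscle. DESeq2 called 0 and 1, and edgeR with total-count scaling called 0 and 4, all higher. Tceal9, a further family gene also known as Wbp5, had 46.94, 40.72, 36.37 and 31.45 CPM in perisynaptic SBMA libraries at 26 weeks, against 27.17, 22.36, 20.87 and 19.21 CPM in control libraries. Its log2 fold change was 0.80 ± 0.13 (edgeR adjusted p = 0.000681). In extrasynaptic muscle it had 40.28, 35.4, 31.85 and 39.16 CPM in SBMA libraries, against 19.1, 18.6, 19.6 and 18.84 CPM in control ones, a log2 fold change of 0.95 ± 0.09 (edgeR adjusted p = 1.9e-06). At 15 weeks the values were 0.24 ± 0.14 (edgeR adjusted p = 0.825) and 0.40 ± 0.09 (edgeR adjusted p = 0.054). The genotype difference in extrasynaptic muscle was larger at 26 than at 15 weeks by 0.55 ± 0.13 (edgeR adjusted p = 0.0419), a call that was lost with total-count scaling. None of the 50-base words of Tceal9 transcripts occurs in another gene.

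**Figure D3:**
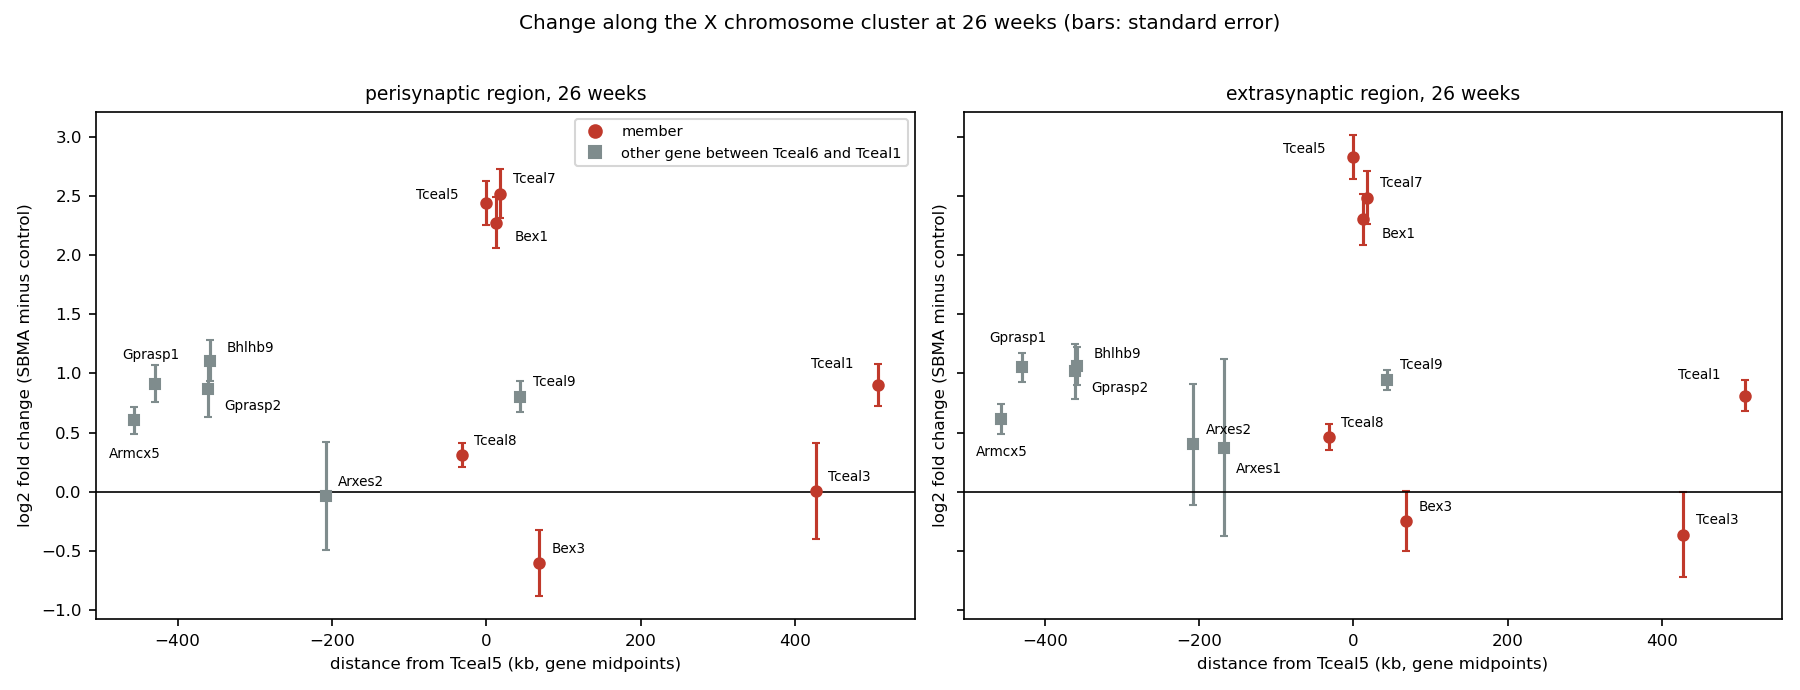
Log2 fold change of SBMA minus control at 26 weeks, with its standard error, against the distance of each gene's midpoint from Tceal5, for tested members (circles) and other tested genes between Tceal6 and Tceal1 (squares). Tceal5, Bex1 and Tceal7 stand above 2 within 18 kb, Tceal8 at -31.7 kb and Tceal9 at 43.7 kb lie between 0.31 and 0.95, and Bex3 at 68.7 kb lies below 0.

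The Armcx and Gprasp genes, X-linked relatives in the same cluster that share the arrangement of a coding sequence in a single exon, were in part higher in SBMA too. The list of 12 genes also held Arxes1 and Arxes2, which enter the counts and medians below where tested. Of the 12 listed genes, 11 were in the table. Over all genes tested at 26 weeks, 8.04% were higher in perisynaptic and 16.1% in extrasynaptic muscle. In perisynaptic muscle at 26 weeks 7 of 10 tested rose and none fell (median log2 fold change 0.74, against -0.02 over all genes), led by Armcx4 (1.16 ± 0.21, edgeR adjusted p = 0.002) and Bhlhb9 (1.11 ± 0.17, edgeR adjusted p = 5e-04). In extrasynaptic muscle 6 of 11 rose (median 0.62, against -0.03), with Armcx4 at 1.41 ± 0.14 (edgeR adjusted p = 3.59e-06) and Gprasp1 at 1.05 ± 0.12 (edgeR adjusted p = 1.9e-05). At 15 weeks edgeR called 0 in either region, with medians of 0.38 perisynaptic and 0.33 extrasynaptic. At an unadjusted p under 0.05 there were 2 and 3, DESeq2 called 0 and 1, and edgeR with total-count scaling called 0 and 4, all higher. Armcx5, Gprasp1, Gprasp2 and Bhlhb9 were already given among the genes between the members. These genes overlap on the same strand, so their counts may be split among them.

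The TFIIS genes, for which the Tceal family is named, included none that rose under TMM scaling. Tcea3, a form found in muscle, fell in SBMA at 26 weeks, with log2 fold changes of -0.49 ± 0.14 perisynaptic (edgeR adjusted p = 0.0249) and -0.66 ± 0.09 extrasynaptic (edgeR adjusted p = 7.96e-05), and Tcea1 and Tcea2 were not called. With total-count scaling the perisynaptic call of Tcea3 was lost and Tcea1 was called higher in extrasynaptic muscle. In the list of neurotrophin and p75 genes, Sort1, which encodes the p75 co-receptor sortilin, rose in perisynaptic and extrasynaptic muscle, with log2 fold changes of 1.67 ± 0.22 and 1.82 ± 0.18 (edgeR adjusted p = 0.000137 and 3.18e-06). Maged1, whose product binds p75, rose in the same regions by log2 0.81 ± 0.08 and 0.96 ± 0.07 (edgeR adjusted p = 9.2e-06 and 2.75e-07). Ngfr itself fell in extrasynaptic muscle, with a log2 fold change of -1.61 ± 0.52 (edgeR adjusted p = 0.027), and Ntf5, a neurotrophin ligand gene, fell in both regions. Of 10 list genes tested at 26 weeks, 2 rose and 2 fell in perisynaptic muscle (median -0.11) and 3 rose and 2 fell in extrasynaptic muscle (median -0.28). Over all genes tested 14% were called in perisynaptic and 32.2% in extrasynaptic muscle, and nothing particular to this list is read from its counts.

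Marker lists of other cell types differed in direction at 26 weeks. Satellite cell and myoblast genes summed to 192.9 to 249.2 CPM in perisynaptic SBMA libraries and 135.2 to 163 CPM in control libraries, and 5 of 10 rose, among them Pax7 (0.81 ± 0.25, edgeR adjusted p = 0.0405) and Myf5 (0.82 ± 0.17, edgeR adjusted p = 0.00371). In extrasynaptic muscle the sum was 190.8 to 274.1 CPM in SBMA libraries, against 140.2 to 164.6 CPM in control ones, with 5 of 10 higher. Regenerating fibre genes summed to 207.2 to 496.7 CPM in perisynaptic SBMA libraries, against 160.5 to 198.2 CPM in control ones. Their extrasynaptic sums overlapped, at 210.8 to 362.3 CPM in SBMA libraries and 210.2 to 266.3 CPM in control ones. Of those tested, 1 of 6 rose in perisynaptic and 3 of 5 in extrasynaptic muscle. Myh8, the perinatal myosin heavy chain, rose in both (2.39 ± 0.27 and 2.38 ± 0.17, edgeR adjusted p = 3.49e-05 and 2.07e-07). The neuron and axon list summed to 15.92 to 31.18 CPM in perisynaptic SBMA libraries and 10.2 to 23.93 CPM in control libraries, which overlapped. In that list Uchl1 rose there by log2 2.47 ± 0.34 (edgeR adjusted p = 0.000182) and the other 4 genes tested were not called. In extrasynaptic muscle Uchl1 rose too, by log2 1.57 ± 0.46 (edgeR adjusted p = 0.0172), the only 1 called of 5 tested. The extrasynaptic sums overlapped, at 12.44 to 31.37 CPM in SBMA libraries and 11.61 to 24.8 CPM in control ones. Snap25 was at 0 in all 4 perisynaptic SBMA libraries and in the extrasynaptic libraries of both genotypes at that age. Schwann cell genes summed to 146.1 to 203.4 CPM in perisynaptic SBMA libraries, against 118.3 to 260.7 CPM in control ones. Of these, 0 of 10 were called by edgeR, 0 at an unadjusted p under 0.05 and 0 by DESeq2. In extrasynaptic muscle 5 of 10 endothelial, 6 of 9 macrophage, 3 of 7 mesothelial and 6 of 10 fibroadipogenic genes fell at 26 weeks. With total-count scaling these counts were 1, 4, 0 and 1. Over all genes tested at 26 weeks, 14% were called in perisynaptic muscle (8.04% higher) and 32.2% in extrasynaptic muscle (16.1% higher). The part of these lists in the members' values was not tested.

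Tceal7 had the widest range of group means among the members above 2 CPM, 2.97 on the log2 scale over the 8 groups. The genes nearest to its profile, by the root mean square difference of centred group means among 16131 other genes, were Usp29 (0.16), Gm47593 (0.21), Rasl10b (0.21), Erc2 (0.21) and Enkur (0.21). They lie on chromosomes 7, 10, 11, 14 and 2 in that order. No minimum CPM was set for these other genes. Gm47593 averaged -3.13 to -0.33 and Usp29 -2.42 to 0.59 log2 CPM over the groups. A library with no count stands at -3.645 on this scale, so the prior count weighs on such low profiles. Usp29, a ubiquitin-specific peptidase gene, averaged 0.49 on the log2 CPM scale in perisynaptic SBMA libraries at 26 weeks and -1.83 in control libraries. Erc2, which encodes a protein of the presynaptic active zone, averaged 2.55 in these SBMA libraries and 0.27 in control libraries on that scale. Measured the same way, Tceal5 would stand at place 2 (0.20) and Bex1 at place 16 (0.30), whereas Tceal1 would stand at place 370, Tceal8 at 3040 and Bex3 at 14538. This likeness follows the SBMA contrast that chose the family and is given as a description.

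The comparison of regions within animals uses the same libraries but was not the contrast that chose the family. In it edgeR's quasi-likelihood test called no member between perisynaptic and extrasynaptic pieces. Among SBMA animals at 26 weeks 0 of 7 members were called (2.07% of 16138 genes), and at 15 weeks 0 of 7 (0.948%). Among control animals 0 of 7 were called at 26 weeks (1.18%) and 0 of 7 at 15 weeks (1.16%). At an unadjusted p under 0.05 the counts were 0, 1, 2 and 0 in that order of groups, and DESeq2 called 0 in each. In SBMA animals at 26 weeks the perisynaptic minus extrasynaptic log2 difference was -0.12 ± 0.10 for Tceal5 (interval of 1.96 SE from -0.31 to 0.07, edgeR adjusted p = 0.47). It was -0.22 ± 0.19 for Tceal7 (-0.59 to 0.15, edgeR adjusted p = 0.495) and 0.04 ± 0.13 for Bex1 (-0.21 to 0.29, edgeR adjusted p = 0.881). Genes of Schwann cells (8 of 10) and of junctional nuclei (5 of 8) were higher in the perisynaptic pieces of the same animals.

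**Figure D4:**
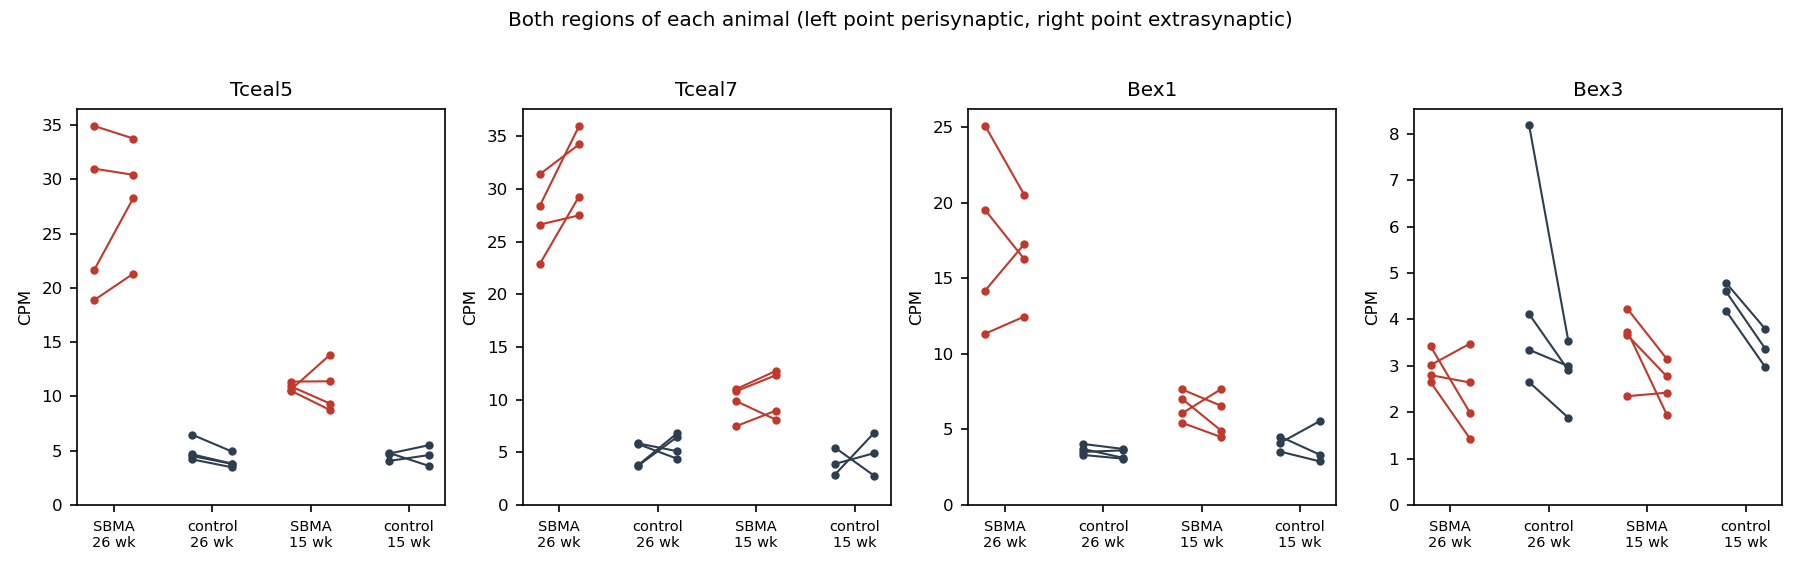
CPM in the perisynaptic (left point) and extrasynaptic piece (right point) of each animal, joined by a line, for Tceal5, Tceal7, Bex1 and Bex3. Bex3 was higher in the perisynaptic piece in 13 of 15 animals, and Tceal5 in 9, Bex1 in 10 and Tceal7 in 4 of 15.

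Bex3 had the lowest adjusted p of the members in each of the 4 region comparisons. Its perisynaptic minus extrasynaptic log2 difference was 0.62 ± 0.19 in control animals at 26 weeks (unadjusted p = 0.00465, edgeR adjusted p = 0.174). It was 0.36 ± 0.19 in SBMA animals at 26 weeks (edgeR adjusted p = 0.264), 0.44 ± 0.19 in SBMA animals at 15 weeks (edgeR adjusted p = 0.637) and 0.43 ± 0.21 in control animals at 15 weeks (edgeR adjusted p = 0.673). The perisynaptic piece was the higher in 3 of 4, 4 of 4, 3 of 4 and 3 of 3 animals of SBMA at 26 weeks, control at 26 weeks, SBMA at 15 weeks and control at 15 weeks. In control animals of 26 weeks the estimate was 0.38 ± 0.20 without animal 2, and Bex3 was called there when genes with low counts were kept in the fit. Schwann cell genes moved the same way, with a summed level of 118.3 to 260.7 CPM in perisynaptic and 60.04 to 70.54 CPM in extrasynaptic control libraries at 26 weeks, and their part in this value was not tested.

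No tested member was called for a region difference that depends on genotype. At 26 weeks 0 of 7 members were called (0.0124% of genes), with 1 at an unadjusted p under 0.05, Tceal5 at -0.42 ± 0.16 (interval from -0.74 to -0.10, edgeR adjusted p = 1). At 15 weeks 0 of 7 were called (0% of genes), with none at an unadjusted p under 0.05. DESeq2 called none at either age.

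No member was called between ages in control animals. The animals of each age formed their own runs of animal numbers, so age and run cannot be told apart here. Between 26 and 15 weeks 0 of 7 members were called in perisynaptic and 0 of 7 in extrasynaptic control libraries, where 0% of all genes passed edgeR's test in each. At an unadjusted p under 0.05 there were 0 members and 891 genes in perisynaptic and 1 member, Tceal8 at -0.29 ± 0.12, and 1036 genes in extrasynaptic muscle, and DESeq2 called no member, with 40 and 51 genes overall. The 26 minus 15 weeks log2 difference in perisynaptic control muscle was 0.13 ± 0.21 for Tceal5 (-0.29 to 0.54), 0.26 ± 0.23 for Tceal7 (-0.19 to 0.71) and -0.15 ± 0.24 for Bex1 (-0.61 to 0.32). In extrasynaptic control muscle it was -0.20 ± 0.21, 0.22 ± 0.25 and -0.22 ± 0.24 for these genes.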

How the data were processed

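The authors deposited 1 table of raw counts for 33076 genes, made with featureCounts on mm10 per the submitters' processing notes. The sources used here do not give aligner, annotation or strand setting. RNA came from a miRNeasy kit with DNA digestion and libraries from a KAPA stranded mRNA kit, per the labels' protocols. Of the gene IDs, 32318 matched GENCODE vM21, and the other 758 hold 2.8% of counts.

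Low genes were removed by filterByExpr (counts of 10 per library and 15 in total as minima). TMM factors were applied, and edgeR 4.0.16 (R 4.3.3) gave 2-sided quasi-likelihood p-values, adjusted by Benjamini-Hochberg over all genes tested. Each region was fitted on its 15 libraries, and region differences on all 30 with a term per animal (11 residual degrees of freedom). A gene is called at an adjusted p under 0.05. Log2 CPM used a prior count of 2. Alternatives covered scaling, filter, blocks, DESeq2 1.42.0, runs of animal numbers and each animal left out. The fits were tested on simulated data. Regions are paired by animal per the labels, and both libraries of an animal deviated together (lowest correlation 0.213 at 26 and 0.09 at 15 weeks).

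The members, the 14 gene lists and the tests were chosen with earlier results of these data known. All 10 members are named, with the neighbours that passed and the 5 genes most like the member with the widest range. List genes that passed are named only in part. Among those left out are Armcx3 and Armcx6, and Colq and Musk of the junctional nuclei list, in SBMA minus control at 26 weeks. The promoter motifs were chosen after the promoters had been read.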

Additional observations from a re-analysis of the deposited data

Results flagged for a closer look

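Of 42 sets of 4 libraries checked for a library far from the others (Dixon's test, which flags about 1 in 20 by chance), 2 stood out. Tceal1 in extrasynaptic SBMA muscle at 26 weeks was highest in animal 1, at 10.98 CPM, while the other 3 libraries lay between 9.173 and 9.373 CPM. Tceal3 in perisynaptic SBMA muscle at 15 weeks was highest in animal 2, at 1.027 CPM, while the others lay between 0.4691 and 0.5341 CPM, a gene with at most 24 counts per library. Leaving out 1 animal at a time kept Tceal1 called in extrasynaptic muscle at 26 weeks, with a log2 fold change between 0.74 and 0.88. This contrast chose the family, so nothing is read from that call.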

How the results depend on the processing

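Of 194 repeats of a count of members called, 154 kept it within 1.5 times, and of 765 repeats of a member's value none reversed a called one. At 26 weeks Tceal5, Tceal7, Bex1 and Tceal1 were called in both regions under every alternative, each animal left out and each run of consecutive animal numbers included. These refits reuse the libraries and the contrast that chose the family, so the calls are a description and no support. Replicate numbers were not taken to pair the genotypes. At 26 weeks 3 of 4 correlations between SBMA and control libraries of the same number were over 0.1 in each region. The lowest values were 0.0528 perisynaptic and 0.00466 extrasynaptic, and at 15 weeks none was over 0.1. With the replicate block, the counts stayed at 4 perisynaptic and 5 extrasynaptic at 26 weeks, and were 0 at 15 weeks and 0 for genotype by age in each region. Without the animal term no region call changed. A block of replicate numbers across ages, chosen after seeing the data, called 0 members between ages in control animals, as without it.

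At 15 weeks the perisynaptic count of 2 was 0 to 1 with an animal left out. The extrasynaptic count of 2 was 4 with total-count scaling, 1 with runs as a block and 1 with only both groups in the fit. It was 1 to 2 with an animal left out. Counts within runs are not given at that age, since 1 genotype had a single animal in each run. For genotype by age, the perisynaptic count of 1 was 2 with total-count scaling, 3 without the filter, 2 with runs as a block, 3 with DESeq2 and 0 to 2 with an animal left out. Without the filter, 1 member (Bex3) was called between regions in control animals at 26 weeks, against 0 with it. The cause of these changes was not tested.

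Total-count scaling moved the median of all genes in SBMA minus control by 0.256 perisynaptic and 0.214 extrasynaptic at 26 weeks, by 0.193 extrasynaptic at 15 weeks, and in perisynaptic genotype by age by 0.174. The share of calls that were higher was then 91.7%, 84.8%, 95.4% and 85.1%, against 57.4%, 50%, 45.3% and 64.4% with TMM, and in perisynaptic muscle at 15 weeks 77.8% against 60.6%. Between regions it was 90.5% against 79.9% in SBMA at 26 weeks and 90.7% against 80.3% in control animals at 15 weeks. Depth limits Tceal6, Bex2, Bex4 and Tceal3.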
